A study of Mus musculus with 8 samples.

Results

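NF-κB is a family of dimeric transcription factors built from the proteins of Nfkb1, Nfkb2, Rel, Rela and Relb, and it is controlled by inhibitors that several of its own dimers switch on. In resting cells the dimers are held in the cytoplasm by the IκB proteins, which include those encoded by Nfkbia, Nfkbib and Nfkbie. Receptors for cytokines and growth factors activate the IκB kinase complex, IκB is degraded and the dimers move to the nucleus, where they induce Nfkbia and Tnfaip3 among other genes and so limit their own activity. In fibroblasts this loop is best known from the response to tumour necrosis factor and interleukin-1. The 10 genes are those of the 5 subunits, the inhibitor genes Nfkbia, Nfkbib, Nfkbie and Tnfaip3, and Nfkbiz, which encodes a nuclear IκB protein. Their probes were found on the arrays by gene name. No measured value was used to find them, but the genes were chosen with earlier results of these data known. They had 14 of the 55681 non-control probes, and 13 of these probes, for 9 of the 10 genes, were bright enough to be tested.

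The arrays were made to ask how cordycepin changes the response of fibroblasts to serum. Cordycepin is an adenosine analogue without the hydroxyl group at which RNA chains are extended. All cells were NIH3T3, an immortalised line of mouse embryonic fibroblasts. They were grown with 10% newborn bovine serum and then starved for 24 h in medium with 0.5% of it. In the cordycepin plus serum group (3 arrays) the starved cells received 20 µM cordycepin, dissolved in DMSO, for 90 min. Fresh serum, 0.1 of the volume, was added for the last 30 min. The serum group (3 arrays) received 0.1% DMSO in place of cordycepin and the same serum. The no serum group (2 arrays) is labelled only as serum starved, and its label does not say whether it received DMSO. Cordycepin was never given without serum on these arrays, and the 3 comparisons below share arrays with each other. The series describes the triplicates as independent without saying what was repeated, so p-values measure the spread between these samples, which may be technical.

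RNA was labelled with Cy3 and hybridised to 1-colour Agilent arrays with probes of 60 bases. Values are log2 processed signal minus the 75th percentile of the same array, and 0 stands for a probe at that percentile and a difference of 1 for a change of 2-fold relative to it. A gene was read from its brightest tested probe, and levels of different genes were not set against each other. The signal at the 75th percentile lay between 350.5 and 802 units, and the scanner software marked 51.1 to 57.1% of probes as well above background. Arrays of the same group correlated at 0.992 to 0.995 across probes. All 10 fibroblast markers examined were well above background on every array and none was called changed, whereas 1 of 5 epithelial, 3 of 4 endothelial and 4 of 7 immune markers were bright enough to be tested. Epcam, Cdh1, Krt18 and Krt19 (epithelial), Cdh5 (endothelial) and Ptprc (leukocyte) were among those that were not, and Cldn4, the epithelial marker tested, was well above background on the no serum arrays only. The endothelial markers Pecam1, Kdr and Tek were well above background on all arrays, and none was called. The differences between cordycepin plus serum and serum of the 4 immune markers tested were all positive, from 0.13 to 3.04 with a median of 0.58 on the log2 scale, and 1 of them was called. This was the lysosomal protein gene Cd68, which was 3.04 ± 0.21 (SE) higher on the log2 scale with cordycepin plus serum than with serum, with a limma adjusted p of 5.17e-05. The summed linear level of the 7 immune markers, in multiples of the 75th percentile, was 28.3 to 35.7 with cordycepin plus serum, 16.3 to 18.1 with serum and 14.9 to 19.5 without serum. The part of such RNA in the results below was not tested. In bulk RNA, fewer cells that express a gene and less of its RNA per cell cannot be told apart.

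The κB site, the DNA element to which NF-κB dimers bind, was looked for in the promoters of the 10 genes, since binding there is how the loop is closed. RefSeq promoter windows of 300 bases (250 before and 50 after the annotated start, build GRCm38.p6) were at hand for 7 genes, in 10 windows. The first 9 letters of its common forms, GGGNNTTTC and GGGNNTTCC, and the shorter form GGAATTTCC were searched on both strands. The first occurs in 4.36%, the second in 5.82% and the third in 0.317% of the 32851 windows of all genes, and 9.74% hold at least one of them. The patterns can overlap each other, as where GGAATTTCC follows a G. Of the 7 genes, 6 had a match in at least 1 window, and the window of Nfkbib held none of these letters. Counted by window, as the shares of all genes are, 8 of the 10 windows had a match. A gene with several windows has more chances of one. These 9-letter forms were taken after matches of the full forms, which carry one more C at the end, had been seen. With that C required, 4 of the 7 genes, Nfkb2, Rel, Nfkbia and Tnfaip3, had a match, beside 3.46% of all windows, and the matches of Rela and Nfkbie were lost. A cAMP response element was also searched for at first, had no match in these windows and was not kept. The 100 bases before the start are printed for the 5 genes with a whole match there, to show where it lies, with the matched letters in capitals. They cover chr19:46304637-46304736 and chr19:5637441-5637540 on the plus strand for Nfkb2 and Rela, and chr11:23770970-23771069, chr12:55492648-55492747 and chr10:19015411-19015510 on the minus strand for Rel, Nfkbia and Tnfaip3.
Nfkb2: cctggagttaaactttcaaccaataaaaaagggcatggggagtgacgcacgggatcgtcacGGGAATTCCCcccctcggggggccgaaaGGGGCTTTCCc
Rela: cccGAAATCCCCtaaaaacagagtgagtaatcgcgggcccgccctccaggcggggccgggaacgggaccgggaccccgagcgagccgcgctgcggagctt
Rel: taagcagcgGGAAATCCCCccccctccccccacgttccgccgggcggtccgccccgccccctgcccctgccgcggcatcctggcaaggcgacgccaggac
Nfkbia: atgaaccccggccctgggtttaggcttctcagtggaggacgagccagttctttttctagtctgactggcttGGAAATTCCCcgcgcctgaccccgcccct
Tnfaip3: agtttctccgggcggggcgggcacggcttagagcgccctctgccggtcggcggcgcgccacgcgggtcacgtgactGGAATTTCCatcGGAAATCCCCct
In Tnfaip3 the forms lay next to each other, from 24 to 16 and from 12 to 3 bases before the start, and the window at the other annotated start of the gene had none. In Nfkbia the printed match lay 29 to 20 bases before the start. The match of Rela was farther away, 97 to 89 bases before the start, and that of Nfkbie, from 105 to 97 bases before it, is not printed. Further matches to GGGNNTTTC lay outside the printed bases in Nfkb2, Nfkbia and Tnfaip3. A match of letters describes the window and says nothing of binding in these cells.

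**Figure D1:**
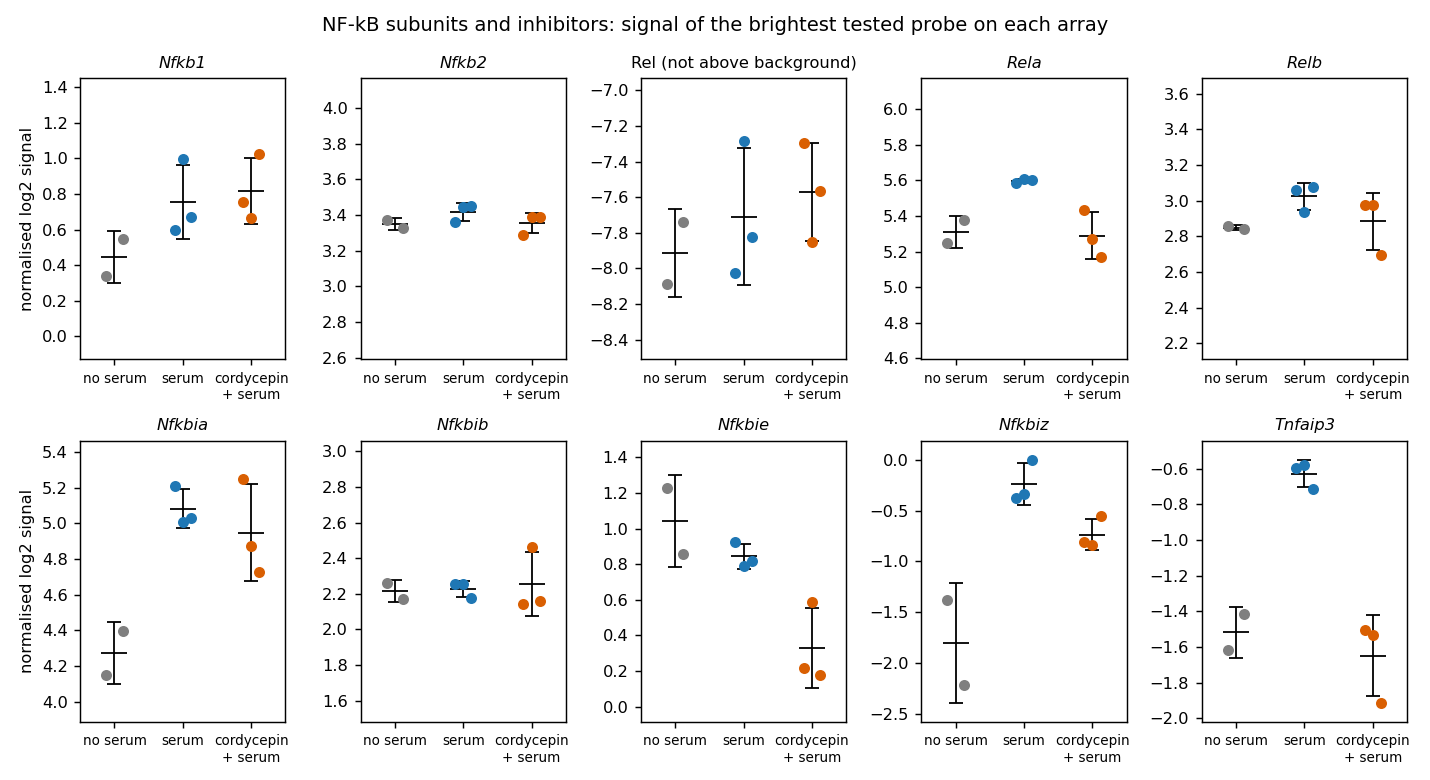
Normalised log2 signal (vertical axis, a separate range for each panel) of the 10 genes on each array without serum (2 points), with serum (3 points) and with cordycepin plus serum (3 points). Dashes and bars are mean ± SD. Tnfaip3 lies between -0.71 and -0.58 with serum and between -1.91 and -1.42 on all other arrays, while the Nfkbia arrays with cordycepin plus serum overlap those with serum.

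With cordycepin, Tnfaip3 fell to values that overlapped those without serum, and for Nfkbia, the other feedback gene with a promoter printed above, no change was detected. Of the 9 genes tested, 0 were called higher and 1, Tnfaip3, was called lower with cordycepin plus serum than with serum. Across all 30859 probes tested, 7.63% were called higher and 2.87% lower. A call required both an adjusted p under 0.05 and a log2 change of 1 or more in size. The median change of the 9 genes was -0.14 on the log2 scale, in a range from -1.02 to 0.06, beside a median of 0.10 over all probes. The arrays of the groups did not overlap for 4 of the 9 genes, Rela, Nfkbie, Nfkbiz and Tnfaip3, each of them lower with cordycepin. Such separation was found toward lower values in 13.4% and toward higher values in 26.5% of all probes.

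Serum alone raised Nfkbiz. Of the 9 genes, 1 was called higher and 0 were called lower with serum than without, against 0.849% of all probes called higher and 0.878% lower. For probes of RefSeq mRNAs these shares were 0.782% and 0.0615%. The arrays did not overlap for 6 genes, Nfkb1, Rela, Relb, Nfkbia, Nfkbiz and Tnfaip3, all of them higher with serum, although with arrays centred on spike-in RNA, which shifted the median of all probes to -0.38, the values of Nfkb1, Rela and Relb turned negative, as did those of Nfkb2 and Nfkbib. Among all probes 9.71% were separated in that direction and 13.6% in the other. The median of the 9 genes was 0.29 on the log2 scale and that of all probes -0.02. With cordycepin plus serum against no serum, 1 gene was called higher, again Nfkbiz, and 0 lower, where 6.48% of all probes were called higher and 2.99% lower. Probes of RefSeq mRNAs gave 3.42% and 1.90%.

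**Figure D2:**
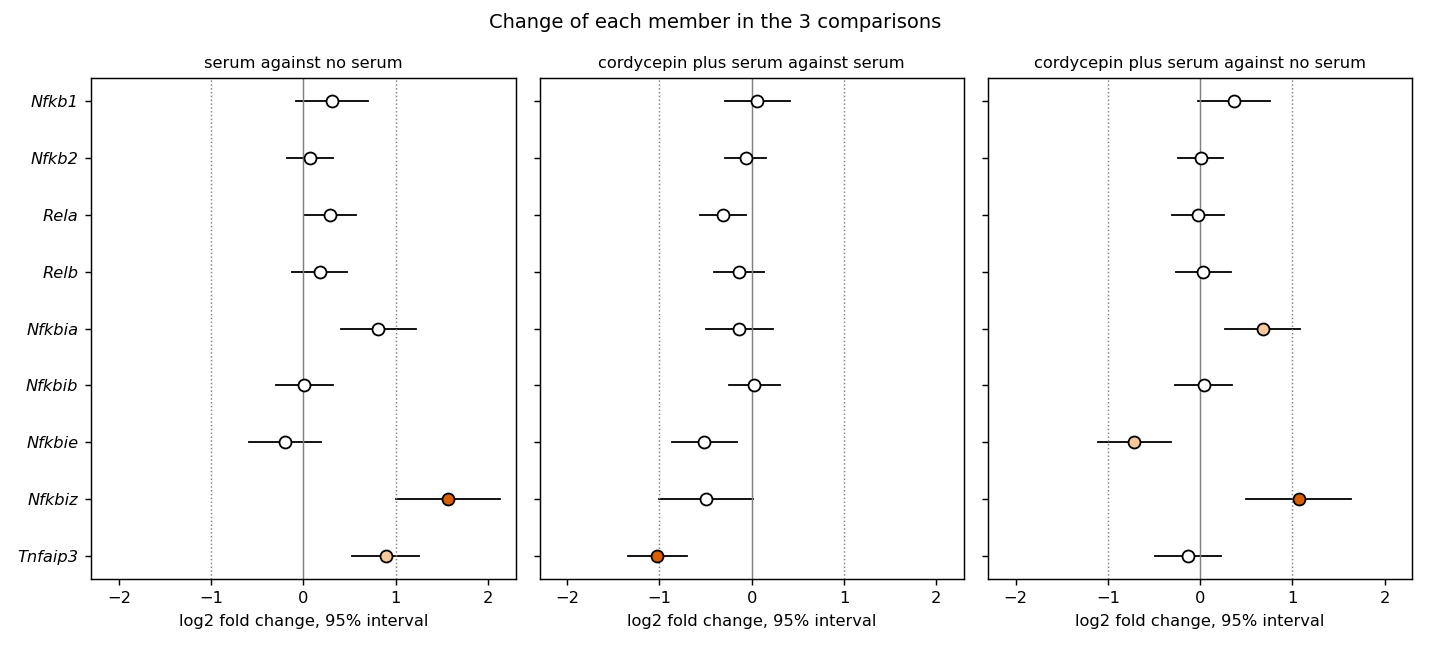
Log2 fold change (horizontal axis) of the 9 tested genes in the 3 comparisons, with 95% intervals from limma. Full orange marks called changes (adjusted p under 0.05, beyond the dotted lines at a log2 change of 1), and pale orange an adjusted p under 0.05 with a smaller change. Orange marks stand at Nfkbiz for serum (1.57), at Tnfaip3 for cordycepin (-1.02) and at Nfkbiz against no serum (1.07).

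Among the subunits, Rela lay in separate ranges with cordycepin plus serum and with serum alone, by a small step that did not pass the test. Rela encodes the subunit with the main transactivation domain of the classical dimer. Its probe (chromosome 19, 5648070 to 5648129 on build mm9, as are all probe positions here) gave 5.43, 5.27 and 5.17 with cordycepin plus serum, 5.59, 5.61 and 5.60 with serum, and 5.25 and 5.37 without serum. All 3 serum arrays lay above the other 5. The difference between cordycepin plus serum and serum was -0.31 ± 0.11 (SE; 95% interval -0.56 to -0.06), with a limma adjusted p of 0.0888. Serum against no serum differed by 0.29 ± 0.12, with an adjusted p of 0.460.

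Nfkb1, which encodes the precursor of the partner of RelA in the classical dimer, did not separate cordycepin plus serum from serum. The brighter probe (chromosome 3, 135254550 to 135254609) gave 0.76, 0.67 and 1.02 with cordycepin plus serum, 0.60, 0.99 and 0.67 with serum, and 0.34 and 0.55 without. Both arrays without serum were below the other 6. The difference between cordycepin plus serum and serum was 0.06, with an interval from -0.29 to 0.41. The other Nfkb1 probe, which lies further along the same transcript, showed the no serum arrays at -0.31 and -0.55, overlapping the serum arrays (-0.60 to -0.46), so the separation was seen with the brighter probe only.

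For the subunits of the alternative pathway no change was detected. Nfkb2, whose product is processed to the partner of RelB, stayed between 3.29 and 3.45 on all 8 arrays, and its 3 differences ranged from -0.06 to 0.07. The interval for cordycepin plus serum against serum ran from -0.29 to 0.16, so a change as large as the one called for Tnfaip3 lay outside it. Relb lay at 2.98, 2.98 and 2.70 with cordycepin plus serum, 3.06, 2.94 and 3.07 with serum, and 2.86 and 2.84 without, a difference of -0.14 (interval -0.41 to 0.13) for cordycepin. Its other probe, which overlaps the first on chromosome 7, gave -0.12. There the arrays without serum (1.945 and 2.032) overlapped the serum arrays (2.029 to 2.246). Relb separated those groups with the brighter probe only. Rel, the subunit typical of lymphoid cells, did not rise clearly over background on any of the arrays, and its processed signal was 2 to 3 units.

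The IκB genes gave 3 different patterns. Nfkbia encodes IκBα, the inhibitor that is resynthesised fastest after a stimulus. Its probe, which has no position in the files, gave 4.15 and 4.40 without serum, 5.21, 5.01 and 5.03 with serum, and 5.25, 4.87 and 4.72 with cordycepin plus serum. The arrays without serum lay below all others, and the remaining groups overlapped. Serum against no serum differed by 0.81 ± 0.18, a fold of 1.75, with a limma adjusted p of 0.0666, and cordycepin plus serum against no serum by 0.68 ± 0.18, a fold of 1.60, with an adjusted p of 0.0373. Both stayed under the fold needed for a call. The difference between cordycepin plus serum and serum was -0.13 ± 0.16, and its interval from -0.50 to 0.23 does not reach the change called for Tnfaip3.

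Nfkbie encodes IκBε, a slower member of the family. On its probe (chromosome 17, 45700000 to 45700059) the values were 1.23 and 0.86 without serum, 0.92, 0.79 and 0.82 with serum, and 0.22, 0.59 and 0.18 with cordycepin plus serum. The cordycepin arrays were the lowest 3 of the 8. The difference from serum was -0.51 ± 0.15, with a limma adjusted p of 0.0503, and that from no serum was -0.71 ± 0.17, with an adjusted p of 0.0256. Neither reached the fold for a call, and serum itself gave -0.20 with overlapping arrays.

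Nfkbib, which encodes IκBβ, depended on the probe. The brightest (chromosome 7, 29544160 to 29544219) stayed between 2.14 and 2.46 on all arrays, with a cordycepin difference of 0.03 (interval -0.25 to 0.30). The second brightest gave 0.20 for the same comparison. The dimmest, designed against another RefSeq transcript of the gene and lying at 29543270 to 29543329, gave -3.28, -3.83 and -3.76 with cordycepin plus serum, -2.97, -3.13 and -3.21 with serum, and -2.83 and -2.82 without. Its groups were ordered without overlap. The difference was -0.52 ± 0.16 against serum (limma adjusted p of 0.0580) and -0.80 ± 0.18 against no serum (adjusted p of 0.0198), opposite in sign to the other Nfkbib probes. Its size depended on the processing. Over 18 settings it ranged from -0.78 to -0.06 against serum and from -1.19 to -0.14 against no serum. On leaving out single arrays the difference from serum ranged from -0.69 to -0.42. No Nfkbib probe was called in any comparison.

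**Figure D3:**
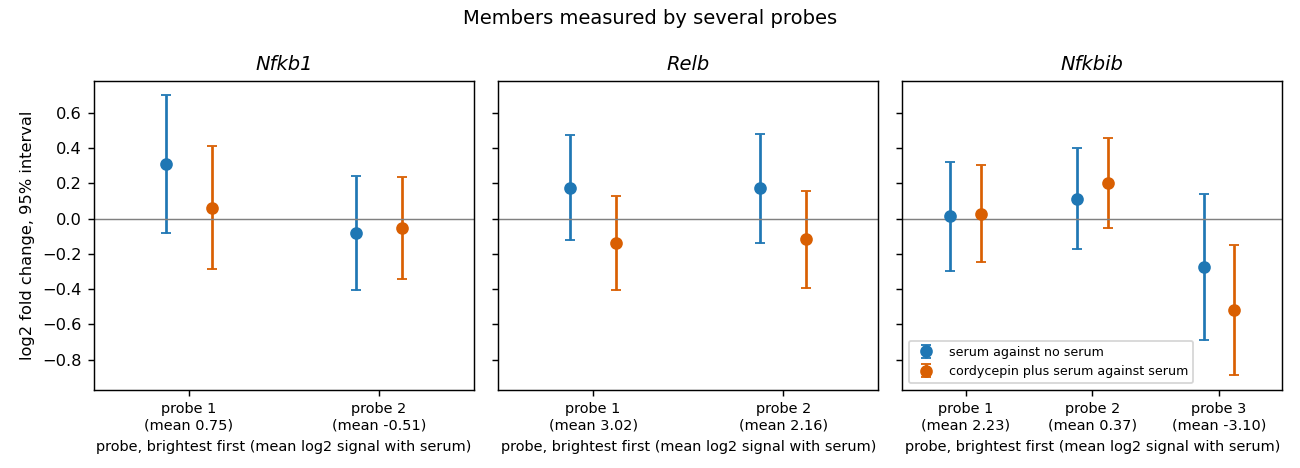
Log2 fold change with 95% interval (vertical axis) of each probe of Nfkb1, Relb and Nfkbib, brightest first, for serum against no serum (blue) and cordycepin plus serum against serum (orange). The Relb probes lie close together (-0.14 and -0.12 for cordycepin), whereas the third Nfkbib probe lies at -0.52 and the others at 0.03 and 0.20.

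Nfkbiz showed the largest response to serum of the 9 genes. It encodes IκBζ, a nuclear IκB protein that acts with NF-κB dimers on secondary response genes and is itself made quickly after stimulation. The probe (chromosome 16, 55817859 to 55817918) gave -1.38 and -2.22 without serum, -0.37, -0.33 and 0.00 with serum, and -0.81, -0.84 and -0.56 with cordycepin plus serum. The 3 groups formed separate ranges, with the cordycepin arrays between the others. Serum against no serum differed by 1.57 ± 0.25, a fold of 2.96, with a limma adjusted p of 0.0181. Cordycepin plus serum against no serum differed by 1.07 ± 0.25, a fold of 2.10, with an adjusted p of 0.0220. Cordycepin plus serum was 0.50 ± 0.22 below serum on the log2 scale (difference -0.50, interval -1.01 to 0.01, adjusted p of 0.163). Without the second no serum array, which is the lower one, the differences from no serum became 1.15 and 0.65, and neither passed the test (adjusted p of 0.0737 and 0.120). The call against no serum was also lost without the first (1.10) or the third cordycepin array (0.98), and both calls were lost with spike-in centring (1.20 and 0.68) and without a filter on dim probes.

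Tnfaip3 was the one gene of the 9 called with cordycepin. Its product removes activating ubiquitin chains from signalling adaptors and so dampens the pathway above the IκB kinase. The probe (chromosome 10, 18720776 to 18720835) gave -1.62 and -1.42 without serum, -0.59, -0.58 and -0.71 with serum, and -1.50, -1.53 and -1.91 with cordycepin plus serum. The serum arrays stood above all 5 others, and the cordycepin arrays overlapped those without serum. Cordycepin plus serum against serum differed by -1.02 ± 0.14, 2.03-fold lower, with a limma adjusted p of 0.00129. Serum against no serum differed by 0.89 ± 0.16, a fold of 1.85, with an adjusted p of 0.0284, just under the fold for a call. This serum difference ranged from 0.53 to 0.99 over 18 settings, with limma adjusted p up to 0.810. On leaving out single arrays it ranged from 0.79 to 0.99. Cordycepin plus serum against no serum differed by -0.13, with an interval from -0.49 to 0.23. The fold criterion was narrowly met, and it was missed with normexp background correction (-0.73), without the third cordycepin array (-0.89, adjusted p of 0.00322) and without the second serum array (-0.996, adjusted p of 0.00574). With spike-in centring the difference was -1.05 with an adjusted p of 0.334.

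The genes whose pattern over the 8 arrays was nearest were picked by the root mean square difference of values after each gene's mean was taken off, among 13412 genes. For Tnfaip3 these were Slc2a1, the glucose transporter gene, at 0.05 and Tubb6, a tubulin gene, at 0.10, beside a range of 1.34 for Tnfaip3 itself. For Nfkbiz, with a range of 2.22, they were Lif, a cytokine gene, at 0.19 and Stbd1, a glycogen-binding protein gene, at 0.22. Slc2a1 changed by -0.99 and Lif by -0.63 with cordycepin plus serum against serum.

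The rest of the pathway was read from 6 lists with 87 genes in all, every one of them on the array and 76 of them tested. With cordycepin plus serum against serum, 1 was called higher and 9 lower, with a median of -0.14. With serum against no serum 8 were called higher and 0 lower, and with cordycepin plus serum against no serum 3 higher and 6 lower. The shares of all probes given above for the same calls are the background for these counts.

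Upstream of the IκB proteins, 4 genes were called lower and 1 higher with cordycepin plus serum against serum. Of 11 IκB kinase and TAK1 kinase genes tested, 1 was called lower, Map3k14, which encodes the NF-κB-inducing kinase that sets off processing of the Nfkb2 product. Map3k14 lay between 2.55 and 2.65 on all 5 arrays without cordycepin and at 0.17, 0.42 and 0.87 with it, a change of -2.10 ± 0.17 with a limma adjusted p of 9.72e-05. Traf2, an adaptor that directs Map3k14 for degradation, was the 1 gene called of 18 adaptors and ubiquitin ligases (-1.67 ± 0.14, adjusted p of 9.49e-05). Among 10 receptor genes 2 were called lower, Tnfrsf12a (-1.55 ± 0.15, adjusted p of 0.000213) and Tnfrsf1b (-1.12 ± 0.19, adjusted p of 0.00464), which encode the receptors of TWEAK and of tumour necrosis factor. Tnfrsf1b missed the fold for a call without the third cordycepin array (-0.95) and with normexp background correction (-0.89). Its call was also lost with spike-in centring (adjusted p of 0.230). Of the 4 ligand genes tested, Ltb, a lymphotoxin gene, was called higher (1.74 ± 0.32, adjusted p of 0.00566), while Tnf, Il1a and Il1b were among the genes not bright enough to be tested. The Ltb call missed the fold with normexp background correction (0.75), and its serum arrays were spread, at -4.08, -4.85 and -5.34.

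Map3k8, whose product links NF-κB1 precursor protein to the ERK pathway, was called with serum and not with cordycepin. It rose by 1.63 ± 0.28 with serum, with a limma adjusted p of 0.0277, and its cordycepin change of -0.86 ± 0.25 (adjusted p of 0.0493) stayed under the fold. The serum call was lost on leaving out any of 5 single arrays, with values from 1.33 to 1.94. It was also lost with normexp background correction (0.91), with spike-in centring (adjusted p of 0.729) and without a filter on dim probes (adjusted p of 0.115). The same held with the replicate number as a block (adjusted p of 0.0819) and in a fit of the 2 groups alone (adjusted p of 0.0697). In all, 10 of 18 settings lost it. Among the 12 other inhibitor and IκB family genes tested, Zc3h12a, which encodes an RNase that degrades inflammatory mRNAs, was the 1 gene called. It rose by 1.45 ± 0.13 with serum (adjusted p of 0.00167) and was 1.59 lower with cordycepin (-1.59 ± 0.12, adjusted p of 6.92e-05). Its values without serum were -2.44 and -2.76 and those with cordycepin plus serum -2.81, -2.65 and -2.77, with a difference of -0.15 between the groups. Like Tnfaip3 it stood high on the serum arrays and nowhere else.

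**Figure D4:**
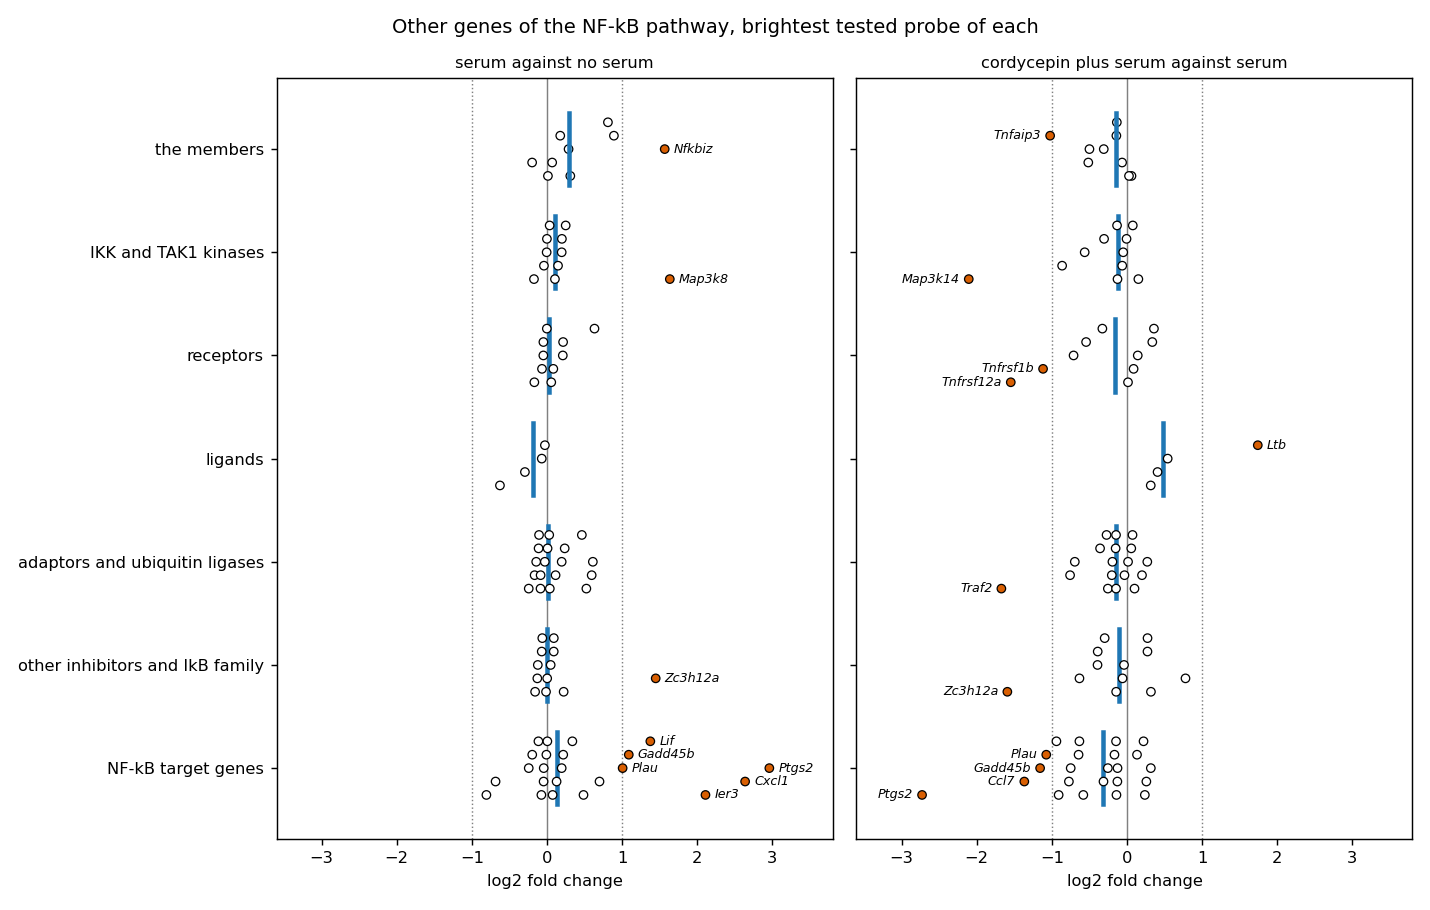
Log2 fold change (horizontal axis) of each tested gene in the lists of the pathway and of the 9 genes described above, for serum against no serum and for cordycepin plus serum against serum. Blue bars are list medians, and orange points with names are genes called changed. Ptgs2 stands farthest from 0 in both panels (2.96 and -2.73), and Cxcl1 is called with serum (2.64) but not with cordycepin (-0.13).

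Of the 23 NF-κB target genes tested, 6 were called higher with serum and 4 were called lower with cordycepin plus serum against serum, with list medians of 0.13 and -0.31. Ptgs2, which encodes the inducible cyclooxygenase, rose from 2.88 and 2.64 without serum to 5.89, 5.69 and 5.58 with it, and lay at 2.81, 3.33 and 2.84 with cordycepin plus serum. The cordycepin change was -2.73 ± 0.17, with a limma adjusted p of 3.13e-05. Gadd45b, a stress response gene (-1.16 ± 0.14), and Plau, the urokinase gene (-1.07 ± 0.16), had the same order, and their values with cordycepin plus serum overlapped those without serum. The serum rise of Plau, 1.01, was at the edge of the fold for a call. Its call was lost in 12 of 18 settings. These included leaving out the second cordycepin array or any 1 of 4 other arrays, normexp background correction, quantile normalisation and spike-in centring. The serum call of Gadd45b was lost in 5 of 18 settings. Among these were leaving out the first serum array or the second no serum array, and spike-in centring. The cordycepin call of Plau missed the fold without the third cordycepin array (-0.98) or the second serum array (-0.95). With spike-in centring the cordycepin calls of Plau (limma adjusted p of 0.275) and Gadd45b (adjusted p of 0.196) were lost. Ccl7, a chemokine gene, fell by 1.37 with cordycepin and its difference between serum and no serum was 0.13.

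Other targets were above their level without serum in both serum groups, as Nfkbiz was. Cxcl1, a neutrophil chemokine gene named here after its values were seen, lay at -1.16 and -1.80 without serum, 1.07, 0.97 and 1.42 with serum, and 0.89, 0.66 and 1.53 with cordycepin plus serum. The latter groups overlapped, with a difference of -0.13 ± 0.26. Ier3, an early response gene, rose by 2.11 ± 0.13 with serum and was still 1.36 ± 0.13 above no serum with cordycepin plus serum, with a limma adjusted p of 0.000319. Of the 23 targets, 3 were called lower with cordycepin plus serum than without serum, namely Irf1, Ccl7 and Bcl2l1. Irf1, an interferon regulatory factor gene also named after its values were seen, lay at 3.31 and 3.73 without serum, 2.98, 2.81 and 2.72 with serum, and 2.20, 2.19 and 2.19 with cordycepin plus serum. The 3 groups did not overlap. Cordycepin plus serum against no serum differed by -1.33 ± 0.15, with a limma adjusted p of 0.000779, and serum against no serum by -0.68 ± 0.15, with an adjusted p of 0.0711. Ccl7 differed by -1.24 ± 0.12 from no serum, and its calls in both comparisons were lost with spike-in centring (adjusted p of 0.0654 against no serum and 0.0717 against serum). Bcl2l1, which encodes an inhibitor of apoptosis, was 1.01 lower with cordycepin plus serum than without serum (-1.01 ± 0.15), and missed the fold without the first cordycepin array (-0.92) or the first no serum array (-0.96). Its call was also lost with array row as a block (-0.99) and with spike-in centring (adjusted p of 0.166). It was not called in the other comparisons.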

How the data were processed

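The authors deposited the Feature Extraction 10.7.3.1 scanner output of 8 arrays, on 1 slide and from 1 scan. The values are spot intensities on a linear scale, background-subtracted by the authors' software, with probe positions on build mm9. The study names limma and states no normalisation. Of 62976 spots, 3671 were controls and were left out with outlier spots. Log2 processed signal was centred on each array's 75th percentile, and spots of a probe were averaged. A probe was tested if well above background on every array of a group, which left 30859 of 55681. The number of arrays limits the precision. limma 3.58.1 (R 4.3.3) fitted group means on all 8 arrays, with two-sided p-values adjusted by Benjamini-Hochberg over all probes tested. Calls required an adjusted p under 0.05 together with a log2 change of 1 or more in size. The calculation was tested on simulated data with added changes larger than the fold limit, which does not cover changes near that limit.

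Genes and lists were chosen with earlier results of these data known. Named were all 10 genes, called list genes (at most 6 a list, by size of the cordycepin change) and the 2 genes nearest to each called gene. Alternatives covered background correction, scaling, filters, call rule, blocks and single arrays. Sequences are RefSeq's.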

Additional observations from a re-analysis of the deposited data

How the results depend on the processing

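Of 513 recomputed changes of the 9 genes, 459 kept their direction and side of the threshold, 15 lost and 3 gained a call, and 36 reversed. The count overstates stability, since part of these changes could not move. The settings without a minimum fold and with unadjusted p keep the main estimates. Leaving out an array of the group outside a comparison keeps its difference too. Most of the differences were not called, and so had no call to lose. The cordycepin call of Tnfaip3 was lost with normexp background correction (-0.73) and with spike-in centring (-1.05, adjusted p of 0.334), leaving 0 of the 9 genes called lower, and the number called lower ranged from 0 to 1 on leaving out each array. The serum call of Nfkbiz was lost (0 genes) with spike-in centring, without the filter on dim probes and in a fit of the 2 groups alone, and its call against no serum (0 genes) with normexp, spike-in centring, no filter and the replicate block. On leaving out each array both counts ranged from 0 to 1. Without a minimum fold, 2 genes were higher with serum, and 2 higher and 1 lower with cordycepin plus serum against no serum. The cause of these changes was not tested. Signal limits what Rel can show, as it was not above background, while the processed signals of Tnfaip3 (122 to 415 units) and Nfkbiz (118 to 596 units) were well above background on all 8 arrays.

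Same-numbered arrays of different groups did not deviate together (7 pairs, correlations from -0.17 to 0.23). With the replicate number as a block, Nfkbiz against no serum became 0.96 (adjusted p of 0.0409), so that 0 genes were called higher there, and the block changed no other call of the 9 genes. The differences of Nfkb2 (-0.013) and Rela (0.0075) against no serum changed sign with the block.

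For cordycepin plus serum against serum, probes called higher numbered 919 with normexp, 1117 among probes above background on all arrays and 3704 without a minimum fold, and those called lower 402 with normexp, 435 with spike-in centring and 2271 without a minimum fold. For serum against no serum, probes called higher numbered 171 with normexp, 58 with spike-in centring and 133 without the filter, and ranged from 136 to 249 on leaving out each array. Those called lower numbered 59 with normexp, 88 without the filter, 142 above background on all arrays, 611 by unadjusted p and 149 with the 2 groups alone, and ranged from 127 to 285 on leaving out each array. For cordycepin plus serum against no serum, higher calls numbered 1063 with normexp, 862 with spike-in centring and 1022 above background on all arrays, and lower calls 338 with normexp and 1837 without a minimum fold.

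Pathway genes called higher with cordycepin against serum numbered 0 with normexp and 2 without a minimum fold, and those called lower 5 with spike-in centring and 25 without a minimum fold. With serum against no serum, higher calls numbered 5 with normexp, 2 with spike-in centring, 4 without the filter and 4 with the 2 groups alone, and ranged from 4 to 8 on leaving out each array. Against no serum with cordycepin plus serum, higher calls numbered 1 with spike-in centring, and lower calls 3 with spike-in centring and 11 without a minimum fold.

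The reversals, all of differences that were not called, were as follows. On leaving out single arrays, cordycepin plus serum against serum ranged from -0.043 to 0.18 for Nfkb1 and from -0.077 to 0.085 for Nfkbib, and serum against no serum from -0.031 to 0.055 for Nfkbib. Cordycepin plus serum against no serum likewise ranged from -0.019 to 0.037 for Nfkb2, from -0.092 to 0.041 for Rela, from -0.011 to 0.129 for Relb and from -0.065 to 0.097 for Nfkbib. With array row as a block the cordycepin difference of Nfkbib from serum was -0.0020. With spike-in centring, serum against no serum gave -0.053 for Nfkb1, -0.295 for Nfkb2, -0.076 for Rela, -0.187 for Relb and -0.351 for Nfkbib, and cordycepin plus serum against no serum gave -0.019 for Nfkb1, -0.386 for Nfkb2, -0.354 for Relb and -0.350 for Nfkbib. For Nfkbib, serum against no serum was -0.018 with normexp, -0.0063 with quantile normalisation and -0.0061 with the percentile over probes above background. Cordycepin plus serum against no serum gave -0.038, -0.055 and -0.027 for Nfkb2 in the same order, and with normexp -0.0073 for Relb, -0.00069 for Nfkbib and 0.0039 for Tnfaip3.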
